A study of Solanum lycopersicum with 12 samples.

Results

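AOS, loxD, LOX1.1, OPR1 and LEJA1 are 5 tomato genes that the array's annotation names and that belong to the jasmonate and lipoxygenase pathways. Each was read by 1 probe set, so the 5 genes are 5 of the 10101 probe sets tested. Every probe set with one of these symbols was taken. The 5 genes themselves were chosen with earlier results of these data known, so their counts of calls and ranks below only describe them. AOS was read by Les.13.1.S1_at, loxD by Les.3632.1.S1_at, LOX1.1 by Les.3668.1.S1_at, OPR1 by Les.22.1.S1_at and LEJA1 by Les.438.1.S1_at. The study asked how salt changed gene expression in whole tomato plants of 2 genotypes, PI365967, known as a wild salt-tolerant tomato, and the cultivar Moneymaker. The 4 groups were PI365967 in 200 mM NaCl, PI365967 in 0 mM NaCl, Moneymaker in 200 mM NaCl and Moneymaker in 0 mM NaCl, each for 5 h. All plants were 4 weeks old when moved from sand to aerated nutrient solution, had 3 days there to acclimate and carried 6 true leaves. Each group had 3 Affymetrix arrays. For each of them the RNA of 3 whole plants was pooled, so the spread between arrays is a spread between pools and the spread between single plants was not measured. In the labels both genotypes stand under Solanum lycopersicum.

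Jasmonates are lipid hormones of wounding, herbivore attack and abiotic stress. They are made from linolenic acid in the chloroplast: a 13-lipoxygenase such as loxD adds oxygen, allene oxide synthase (AOS) turns the hydroperoxide into an allene oxide, allene oxide cyclase (AOC) closes the ring to 12-oxophytodienoic acid, and the peroxisomal reductase OPR3 reduces that ring. Other enzymes act on the same or on related lipids, among them 9-lipoxygenases such as LOX1.1 (also called TomloxA), hydroperoxide lyase and divinyl ether synthase. OPR1 is a relative of OPR3 that acts poorly on the natural precursor of jasmonate. LEJA1 is known in the annotation by the synonym JA1, with no description.

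Between replicate arrays Pearson's r over all probe sets was 0.991 to 0.995, and a typical probe set (the median) had a replicate SD of 0.107 to 0.129 in log2. Array medians of the deposited intensities ran from 332.8 to 633.2, so levels below are given both as deposited and as log2(intensity + 16) after quantile normalization. All 5 genes lay above the brightest of 23 control probe sets for absent transcripts on all 12 arrays, where that control reached 11.1 to 30.2 intensity units. The whole-plant label was checked against listed marker genes of leaf and root. The 7 leaf markers were above the absent controls on every array, and of 9 root markers 8 were so in both NaCl groups and 9 in both control groups, NRAMP1 being the exception. Of 5 flower or fruit markers, 2 were above the absent controls on every array, TPRP-F1 at 2984 to 13578 and E8 at 21.2 to 83.2 intensity units, and PG2, ACS4 and 2A11 stayed at or below 18.5. TPRP-F1 fell and E8 rose under salt in both genotypes.

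AOS and loxD rose under salt in both genotypes, and AOS rose by a large factor. AOS intensities were 494.7, 519.5 and 1085 on the 3 arrays of NaCl-treated PI365967, against 104.6, 98.4 and 70.3 in PI365967 controls. In Moneymaker they were 2451, 1639 and 2092 under NaCl, against 56.3, 62.7 and 73.7 in controls. The NaCl and control arrays did not overlap in either genotype, and NaCl-treated PI365967 lay between its control and NaCl-treated Moneymaker. On the normalized scale AOS averaged 9.41 ± 0.36 under NaCl and 6.79 ± 0.18 in controls of PI365967, and 11.03 ± 0.10 under NaCl and 6.11 ± 0.34 in controls of Moneymaker (mean and SD of log2 levels, n = 3 arrays each). The rise was 6.17-fold in PI365967 (log2 2.63 ± 0.19 SE, limma adjusted p = 1.11e-06). It was 30.3-fold in Moneymaker (log2 4.92 ± 0.19 SE, limma adjusted p = 8.12e-09). Because the Moneymaker controls were dim, that size depended on the constant added before taking logs: log2 4.18 with 64 added and log2 5.28 with 1 added. The authors' deposited table gives AOS ratios of NaCl over control of 6.45 in PI365967 and 31.2 in Moneymaker.

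loxD, the chloroplast 13-lipoxygenase that works before AOS, was already well above background without salt. Its intensities were 1788, 1374 and 2025 in NaCl-treated PI365967, against 659.7, 517.4 and 624.4 in PI365967 controls. In Moneymaker they were 4626, 2971 and 3745 under NaCl, against 833.9, 600.5 and 721.5 in controls. Again no NaCl array reached down to a control array of its genotype. loxD rose 2.63-fold in PI365967 (log2 1.39 ± 0.12 SE, limma adjusted p = 2.75e-06) and 6.01-fold in Moneymaker (log2 2.59 ± 0.12 SE, limma adjusted p = 1.96e-08). Its normalized levels ran, from high to low, through NaCl-treated Moneymaker at 11.93 ± 0.15, NaCl-treated PI365967 at 10.78 ± 0.09, control PI365967 at 9.38 ± 0.21 and control Moneymaker at 9.34 ± 0.12 (log2, mean and SD, n = 3 each). The ranges of both control groups overlapped, and all other neighbours in that order were apart.

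LOX1.1, OPR1 and LEJA1 fell under salt in both genotypes. LOX1.1, a 9-lipoxygenase described mainly from tomato fruit and seed, had intensities of 1146, 1098 and 1751 in NaCl-treated PI365967, against 2862, 2422 and 2512 in PI365967 controls. In Moneymaker it had 377.3, 325.1 and 301.7 under NaCl, against 1540, 1031 and 1078 in controls. The groups were apart within each genotype, and the PI365967 plants were brighter than the Moneymaker plants in either solution. LOX1.1 fell 2.05-fold in PI365967 (log2 −1.04 ± 0.12 SE, limma adjusted p = 3.59e-05) and 2.96-fold in Moneymaker (log2 −1.57 ± 0.12 SE, limma adjusted p = 8.39e-07). In the order of normalized levels, control PI365967 at 11.42 ± 0.12 came first, then NaCl-treated PI365967 at 10.39 ± 0.14, control Moneymaker at 10.09 ± 0.09 and NaCl-treated Moneymaker at 8.52 ± 0.24 (log2, mean and SD, n = 3 each). NaCl-treated PI365967 and control Moneymaker were close, with the lowest array of the first at 10.24 and the highest of the second at 10.17, and on the deposited scale their intensities overlapped.

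OPR1 had intensities of 1105, 821.0 and 1329 in NaCl-treated PI365967, against 2882, 2257 and 1950 in PI365967 controls. In Moneymaker it had 884.5, 687.3 and 822.8 under NaCl, against 3985, 2493 and 2786 in controls. Every NaCl array was below every control array of either genotype. The fall was 2.27-fold in PI365967 (log2 −1.18 ± 0.08 SE, limma adjusted p = 5.54e-07) and 3.34-fold in Moneymaker (log2 −1.74 ± 0.08 SE, limma adjusted p = 2.13e-08). OPR1 had the smallest SE of the 5 genes. Its normalized means were 10.09 ± 0.10 under NaCl and 11.28 ± 0.08 in controls of PI365967, and 9.68 ± 0.08 under NaCl and 11.43 ± 0.06 in controls of Moneymaker (log2, mean and SD, n = 3 each).

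LEJA1 lay near the absent controls in NaCl-treated Moneymaker. Its intensities were 79.9, 78.8 and 138.8 in NaCl-treated PI365967, against 496.7, 372.2 and 276.8 in PI365967 controls. In Moneymaker they were 57.2, 29.2 and 29.3 under NaCl, against 346.2, 248.3 and 297.7 in controls. The NaCl and control arrays were well apart in both genotypes. LEJA1 fell 3.49-fold in PI365967 (log2 −1.80 ± 0.15 SE, limma adjusted p = 2.94e-06) and 4.70-fold in Moneymaker (log2 −2.23 ± 0.15 SE, limma adjusted p = 3.09e-07). The Moneymaker value ran from log2 −1.58 with 64 added before taking logs to log2 −2.61 with 1 added. Its normalized means were 6.90 ± 0.11 under NaCl and 8.70 ± 0.21 in controls of PI365967, and 5.82 ± 0.31 under NaCl and 8.05 ± 0.11 in controls of Moneymaker (log2, mean and SD, n = 3 each).

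**Figure D1:**
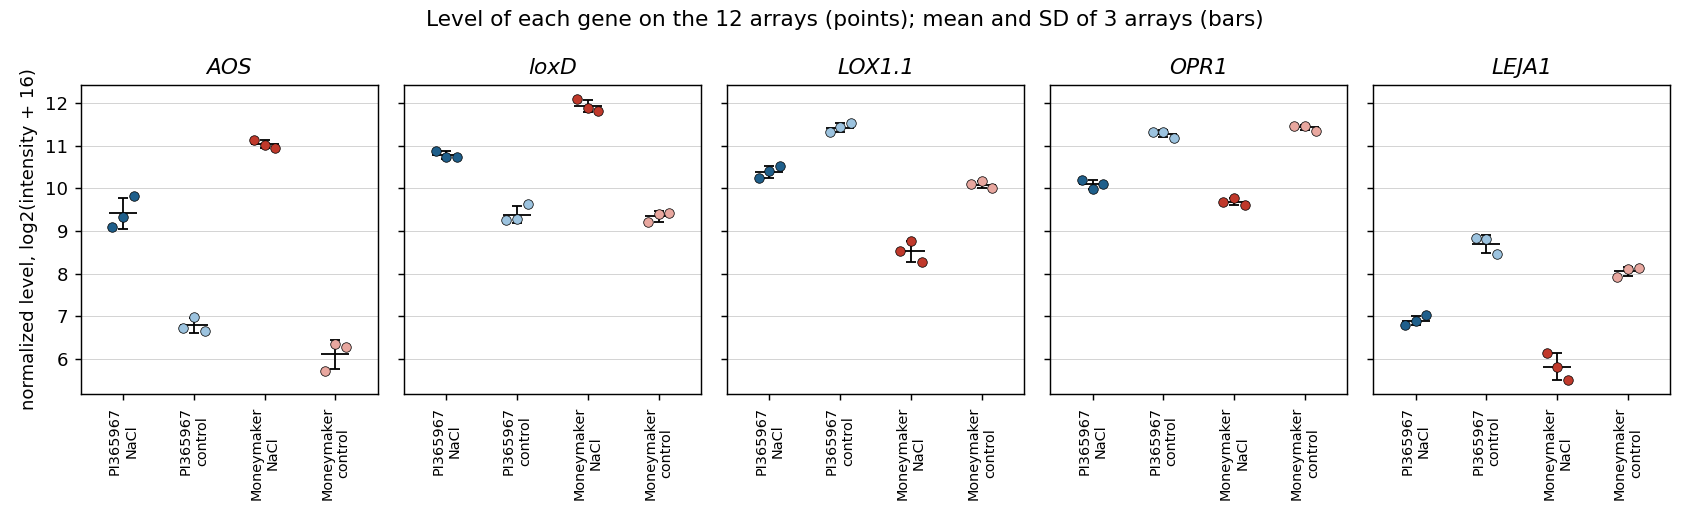
Each panel plots the normalized level, log2(intensity + 16), of 1 gene on the 12 arrays as points, with the mean and SD of the 3 arrays of a group as bars. AOS and loxD stand higher under NaCl than in controls of both genotypes, and LOX1.1, OPR1 and LEJA1 stand lower.

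All 5 genes thus passed the test in both genotypes, 2 higher and 3 lower under salt in each. Over all probe sets, 23.3% were called higher and 24.0% lower in PI365967, and 26.0% higher and 31.0% lower in Moneymaker, so a call by itself was common. By log2 change AOS ranked 48th from the top of 10101 in PI365967 and 8th in Moneymaker. loxD ranked 272nd in PI365967 and 121st in Moneymaker. From the bottom, LEJA1 ranked 128th in PI365967 and 89th in Moneymaker, OPR1 ranked 359th and 232nd in the same order, and LOX1.1 ranked 501st and 301st. The authors' deposited table lists all 5 genes in both genotypes with a q-value of 0%, as it does 35.2% of its 8074 probe sets in PI365967 and 40.3% in Moneymaker, and under a q-value of 5% it holds 80.2% of them in PI365967.

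Markers of leaf and root also moved with salt. Over all probe sets 24.0% fell and 23.3% rose in PI365967, and 31.0% fell and 26.0% rose in Moneymaker. Of the 7 leaf markers, 4 fell in PI365967 and 6 fell in Moneymaker, and none rose. The summed deposited intensity of the leaf markers was 51030 to 64215 in NaCl-treated and 65941 to 84504 in control PI365967. In Moneymaker it was 35211 to 48291 in NaCl-treated and 50283 to 80839 in control plants. Of the 9 root markers, 6 fell in PI365967 and none rose, and in Moneymaker 6 fell while LKT1 and PT1 rose. Their sum was 13648 to 18941 in NaCl-treated and 17219 to 24318 in control PI365967, and 13723 to 18845 in NaCl-treated and 21140 to 32102 in control Moneymaker. The array's 25S ribosomal RNA control differed between NaCl and control by 0.82 in PI365967 and 1.91 in Moneymaker, and the 17S control by −0.14 in PI365967 and 0.55 in Moneymaker (log2). The 17S control lay near the absent controls and read 10.9 to 60.2 intensity units within NaCl-treated PI365967. The 25S control read 38.9 to 181.1 in NaCl-treated and 29.7 to 55.2 in control PI365967, and 131.0 to 251.9 in NaCl-treated and 42.1 to 57.1 in control Moneymaker. GAPDH, a check of RNA integrity, read −0.058 to 0.21 in log2 at its 3′ minus its 5′ end over the arrays. The part of these shifts in the changes of the 5 genes was not tested. In RNA of whole plants, fewer cells of a type and less RNA per cell cannot be told apart.

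The difference of the salt effects asked whether the 2 genotypes responded by different amounts. For all 5 genes the estimated change was smaller in PI365967, and the test called that difference for AOS, loxD and OPR1. Over all probe sets the median absolute log2 change was also smaller in PI365967, at 0.28 against 0.36 in Moneymaker. A smaller change in PI365967 is therefore not particular to these genes. AOS rose 4.91-fold less in PI365967 (difference of log2 effects, PI365967 minus Moneymaker, −2.29 ± 0.27 SE, limma adjusted p = 0.000468), the 21st lowest difference of 10101. loxD rose 2.29-fold less (−1.19 ± 0.17 SE, limma adjusted p = 0.0011), the 189th lowest. OPR1 fell less in PI365967, with a difference of 0.56 ± 0.11 SE (limma adjusted p = 0.00901). Over all probe sets 6.15% were called with a higher difference and 7.09% with a lower one. The differences of LOX1.1 and LEJA1 did not pass the test: 0.53 for LOX1.1, with a 95% interval of 0.15 to 0.91 and limma adjusted p = 0.0668, and 0.43 for LEJA1, with an interval of −0.043 to 0.91 and limma adjusted p = 0.217. These intervals include differences as large as that of OPR1, so the genotypes are not shown to respond alike in either gene. As a share of the Moneymaker log2 change, the PI365967 change was 53.4% for AOS, 53.9% for loxD, 66.2% for LOX1.1, 68.0% for OPR1 and 80.7% for LEJA1. The calls of loxD and OPR1 depended on normalization between arrays: without it the difference was −0.87 for loxD (adjusted p = 0.234) and 0.79 for OPR1 (adjusted p = 0.299). Without the second array of NaCl-treated Moneymaker, LOX1.1 was called too, with 0.65 (adjusted p = 0.0275).

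**Figure D2:**
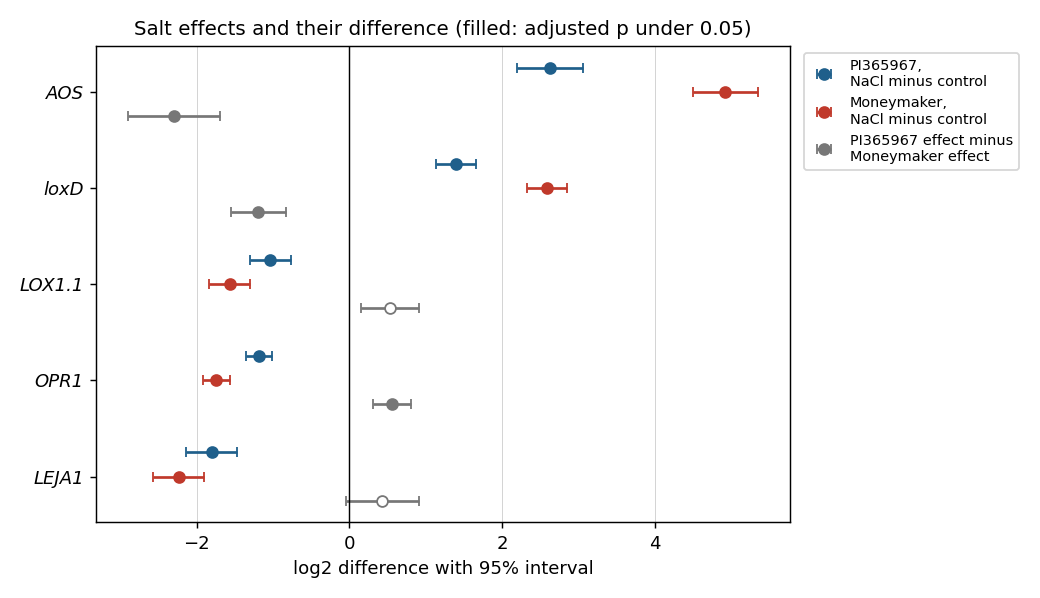
Points are log2 differences with 95% intervals: the salt effect in PI365967, the salt effect in Moneymaker and the PI365967 effect minus the Moneymaker effect. Filled points passed the test at an adjusted p under 0.05. The difference lies below 0 for AOS and loxD and above 0 for OPR1, while the open points of LOX1.1 and LEJA1 did not pass.

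**Figure D3:**
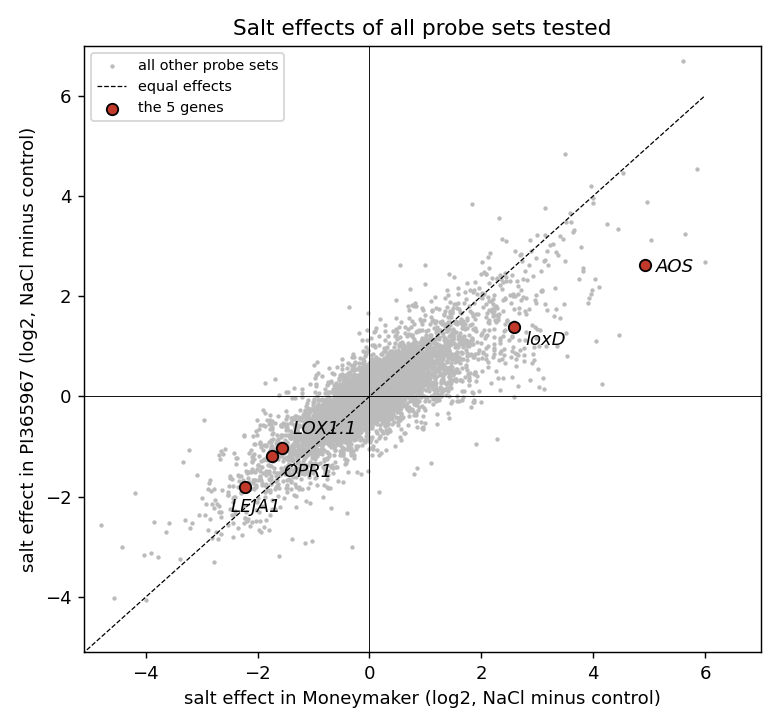
Each grey point is 1 of the 10101 probe sets, with its salt effect in PI365967 on the y axis and in Moneymaker on the x axis, both in log2. AOS, at 2.63 in PI365967 and 4.92 in Moneymaker, and loxD, at 1.39 in PI365967 and 2.59 in Moneymaker, lie below the dashed line of equal effects, and the 3 genes that fell lie above it.

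Under NaCl the genotypes differed in all 5 genes. AOS was 3.07-fold lower in PI365967 than in Moneymaker (log2 −1.62 ± 0.19 SE, limma adjusted p = 4.85e-05) and loxD was 2.22-fold lower (log2 −1.15 ± 0.12 SE, limma adjusted p = 1.41e-05). LOX1.1 was 3.65-fold higher in PI365967 (log2 1.87 ± 0.12 SE, limma adjusted p = 5.70e-07), the 68th highest genotype difference of 10101 under NaCl. LEJA1 was 2.12-fold higher (log2 1.08 ± 0.15 SE, limma adjusted p = 0.000153) and OPR1 1.33-fold higher (log2 0.41 ± 0.08 SE, limma adjusted p = 0.00144). The background for these 3 higher and 2 lower genes was 26.6% higher and 22.5% lower over all probe sets. No array of one genotype overlapped the other in any of the 5 genes on the normalized scale. The share of all probe sets without such overlap is not given here, so this only describes the 5 genes. On the deposited scale the OPR1 intensities overlapped, and without normalization its difference of 0.42 was not called (adjusted p = 0.296).

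In control solution 3 of the 5 genes differed, all higher in PI365967, against a background of 19.2% higher and 17.7% lower. LOX1.1 was 2.53-fold higher in PI365967 (log2 1.34 ± 0.12 SE, limma adjusted p = 9.23e-06), the 120th highest of 10101. AOS was 1.60-fold higher in PI365967 (log2 0.68 ± 0.19 SE, limma adjusted p = 0.0179) and LEJA1 1.57-fold higher (log2 0.65 ± 0.15 SE, limma adjusted p = 0.0062). The AOS and LEJA1 calls rested on the normalization: as deposited, control arrays of the genotypes overlapped in both genes, and without normalization the differences were 0.41 for AOS (adjusted p = 0.322) and 0.32 for LEJA1 (adjusted p = 0.46). The AOS call was also lost without the first Moneymaker control array (0.48) or without the second PI365967 control array (0.58). loxD and OPR1 did not pass, with log2 differences of 0.042 (95% interval −0.22 to 0.30) and −0.15 (95% interval −0.32 to 0.027). On the normalized scale AOS stood lower in PI365967 than in Moneymaker under NaCl. Its higher level in PI365967 in control solution carries the limits just given. A difference in transcript level and a difference in how well the probes match the 2 genotypes cannot be told apart in a comparison between genotypes.

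**Figure D4:**
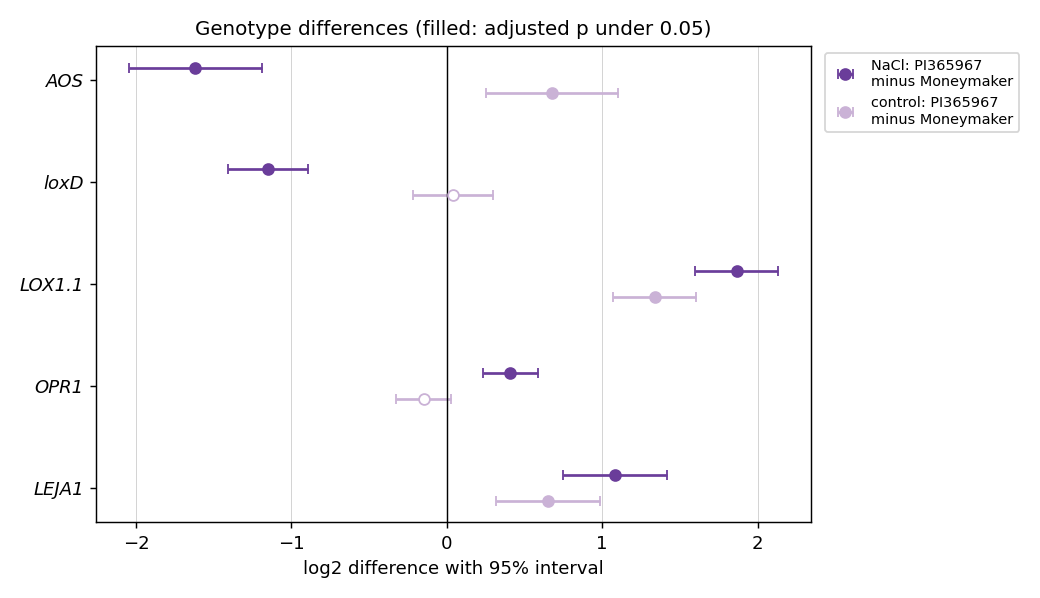
Points are log2 differences, PI365967 minus Moneymaker, with 95% intervals, under NaCl and in control solution. Filled points passed the test at an adjusted p under 0.05. AOS and loxD lie below 0 under NaCl, and LOX1.1 lies above 0 in both solutions, at 1.87 and 1.34.

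Across the 12 arrays the 5 genes formed opposed sets. AOS and loxD ran together (r = 0.978), and OPR1 and LEJA1 ran together (r = 0.937) and against AOS (r = −0.984 for OPR1 and −0.918 for LEJA1). LOX1.1 followed LEJA1 more closely (r = 0.874) than OPR1 (r = 0.697). These are Pearson correlations over arrays that fall into 4 groups, so they mostly restate the group means. Among 697 probe sets with a gene name outside the 5 genes, those most like AOS were ODD (r = 0.989), gtsatom (0.986) and THM16 (0.986). Most like loxD were ERF3, an ethylene response factor gene (0.991), BMY3, a beta-amylase gene (0.978), and ODD (0.977). LOX1.1 was most like MT3 (0.977), Mdip1 (0.972) and CAB5, a chlorophyll a/b-binding protein gene (0.968). OPR1 was most like cevi19, whose probe set may also read related transcripts (0.989), DAD1 (0.985) and yfe37 (0.983). By its synonym this DAD1 is another gene than the lipase of jasmonate synthesis with that symbol. LEJA1 was most like FER, the bHLH regulator of iron uptake (0.981), GMP (0.980) and POR2 (0.974).

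The rest of the pathway was read by 26 probe sets of 21 genes. In PI365967, 6 of the 26 rose, 6 fell and 14 did not pass, with a median log2 change of 0.048 against −0.0037 over all probe sets. In Moneymaker, 9 rose, 4 fell and 13 did not pass, with a median of 0.33 against −0.045. The PI365967 counts were near the shares of all probe sets given above, and in Moneymaker the count that rose was above its share and the count that fell was below.

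Enzymes beside AOS and loxD did not move as a block. Of 8 biosynthesis probe sets, 3 rose and 2 fell in each genotype. Over all probe sets 23.3% rose and 24.0% fell in PI365967, and 26.0% rose and 31.0% fell in Moneymaker. With 8 probe sets these counts are not far from those shares and only describe the list. DES, a divinyl ether synthase that acts on lipoxygenase products, rose by log2 0.89 ± 0.17 SE in PI365967 (adjusted p = 0.00132) and 2.03 ± 0.17 SE in Moneymaker (adjusted p = 1.61e-06). TomloxE, a lipoxygenase, rose by 1.19 in PI365967 and 0.55 in Moneymaker, where the call was lost without normalization (0.35, adjusted p = 0.311). LOXB, another lipoxygenase gene, named after its values were seen, was the third that passed in PI365967, but it lay near the absent controls, with intensities of 22.1, 19.3 and 16.4 under NaCl against 3.6, 15.6 and 4.0 in controls. Only 1 of those 3 control arrays was above the absent controls, and without the first of them the call was lost (adjusted p = 0.0533). The reductase opr2 fell by 0.36 in PI365967 and 0.53 in Moneymaker. OPR3, which carries the jasmonate route itself, fell by 0.47 in PI365967 (adjusted p = 0.00458), and its value in Moneymaker was −0.16 (adjusted p = 0.242). Both PI365967 falls lost their call without normalization, at −0.32 for opr2 (adjusted p = 0.473) and −0.38 for OPR3 (adjusted p = 0.377). HPL, hydroperoxide lyase of the green leaf volatile branch, had −0.37 in PI365967 (adjusted p = 0.0571, called in 9 of 22 alternatives) and fell by 0.58 in Moneymaker (adjusted p = 0.00499). AOC, named for its place between AOS and OPR3 after its values were seen, had 0.032 in PI365967 (adjusted p = 0.865) and rose by 0.51 in Moneymaker (adjusted p = 0.00592). As deposited, its Moneymaker arrays overlapped, at 5375, 3335 and 6084 intensity units under NaCl against 4509, 3156 and 4631 in controls. Without normalization the Moneymaker rise of AOC was not called (0.24, adjusted p = 0.503).

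Of 3 regulators, 1 rose and 1 fell in PI365967, and 2 rose and 1 fell in Moneymaker. The shares over all probe sets are those given for the biosynthesis probe sets, and 3 probe sets are too few to set against them. JA2, a NAC transcription factor gene, rose by log2 1.74 ± 0.15 SE in PI365967 (adjusted p = 3.04e-06) and 2.58 ± 0.15 SE in Moneymaker (adjusted p = 8.83e-08). JA2 entered this list by its symbol, and whether it acts in jasmonate responses was not tested. MYC2, the bHLH factor at the head of jasmonate responses, was also named after its values were seen: it had −0.12 in PI365967 (adjusted p = 0.437) and rose by 0.55 in Moneymaker (adjusted p = 0.00218). Without normalization that rise was not called (0.36, adjusted p = 0.285), and as deposited its Moneymaker arrays overlapped. COI1, the F-box subunit of the jasmonate receptor, fell by 0.25 in PI365967 and 0.19 in Moneymaker. The PI365967 call was lost without normalization (−0.13, adjusted p = 0.822). The Moneymaker call of COI1 (adjusted p = 0.0322) was lost in 8 of 22 alternatives, among them the removal of NaCl array 1 or 3 or control array 2 or 3 of Moneymaker, with values of −0.19 to −0.15.

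Of 15 wound-response probe sets, 10 did not pass in each genotype, where 52.7% of all probe sets in PI365967 and 43.0% in Moneymaker did not. The list was set by gene symbol, and whether each of its genes responds to wounding was not tested. ARG1, an arginase, rose 2.14-fold in PI365967 and 2.61-fold in Moneymaker. TD2, a threonine deaminase, had 0.53 in PI365967 (adjusted p = 0.187) and rose by 0.96 in Moneymaker (adjusted p = 0.0199), a call lost without control array 1 or 2 or NaCl array 3 of Moneymaker, with values of 0.67 to 0.80. CEVI-1, a peroxidase, fell by 1.07 in PI365967 and 1.03 in Moneymaker. LAPA1, a leucine aminopeptidase named after its values were seen, had 0.11 in PI365967 (adjusted p = 0.493) and rose by 0.50 in Moneymaker (adjusted p = 0.00464), a call lost without normalization (0.25, adjusted p = 0.477). ARG2, a second arginase, was read by 3 probe sets, of which 1 was not above the absent controls on any NaCl array of PI365967, so no change is given for it there, and had 0.27 in Moneymaker, not called. The other two had −1.08 and −1.22 in PI365967, both called, and −0.53 and −0.27 in Moneymaker, neither called, and the first of them may also read related transcripts. The fourth wound-response probe set that passed as higher in Moneymaker was 1 of 4 for polyphenol oxidase, with at most 14.9 intensity units and below the absent controls on all 12 arrays, so it has no measured change. CEVI57 rose by 1.54 ± 0.28 SE in PI365967 (adjusted p = 0.000793) with intensities of 80.6, 60.2 and 287.7 under NaCl against 34.5, 29.0 and 29.8 in controls, while in Moneymaker it was bright throughout and its change of 0.19 did not pass (adjusted p = 0.584). NaCl array 3 of PI365967 stood well above the other two. The CEVI57 intensities of PI365967 controls lay near the absent controls. In control solution its genotype difference, PI365967 minus Moneymaker, was log2 −5.20, so its salt effects compare a dim with a bright probe set.

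The difference of the salt effects was called for 6 of the 26 probe sets, 2 higher and 4 lower in PI365967. The shares over all probe sets were 6.15% higher and 7.09% lower. DES (−1.14 ± 0.24 SE, adjusted p = 0.0115), JA2 (−0.84 ± 0.21 SE, adjusted p = 0.0237) and MYC2 (−0.67 ± 0.17 SE, adjusted p = 0.0254) were lower, and the fourth was the polyphenol oxidase probe set at background. TomloxE (0.64 ± 0.18 SE, adjusted p = 0.0367) and CEVI57 (1.35 ± 0.39 SE, adjusted p = 0.0441) were higher. The call of TomloxE was lost on leaving out any of the 9 arrays other than Moneymaker controls, with values of 0.60 to 0.68. That of CEVI57 was lost on leaving out any of the 9 arrays other than NaCl-treated PI365967, with values of 1.28 to 1.43. JA2 lost its call without the first or second PI365967 control array or the second NaCl array of PI365967 (−0.79 to −0.74). MYC2 lost its call without the first or second PI365967 control array or the first NaCl array of Moneymaker (−0.68 to −0.61). Without normalization between arrays CEVI57 alone of these 5 named genes kept its call, and the others had −0.87 for DES (adjusted p = 0.234), −0.52 for JA2 (adjusted p = 0.525), −0.38 for MYC2 (adjusted p = 0.631) and 0.94 for TomloxE (adjusted p = 0.174). Between genotypes, 3 of the 26 were higher and 9 lower in PI365967 under NaCl, against 26.6% and 22.5% of all probe sets. In control solution 9 were higher and 7 lower, against 19.2% and 17.7%. The count higher under NaCl was below its share, and the other counts were above theirs. The 9 lower under NaCl include the polyphenol oxidase probe set at background and the ARG2 probe set not above the absent controls on NaCl arrays of PI365967.

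**Figure D5:**
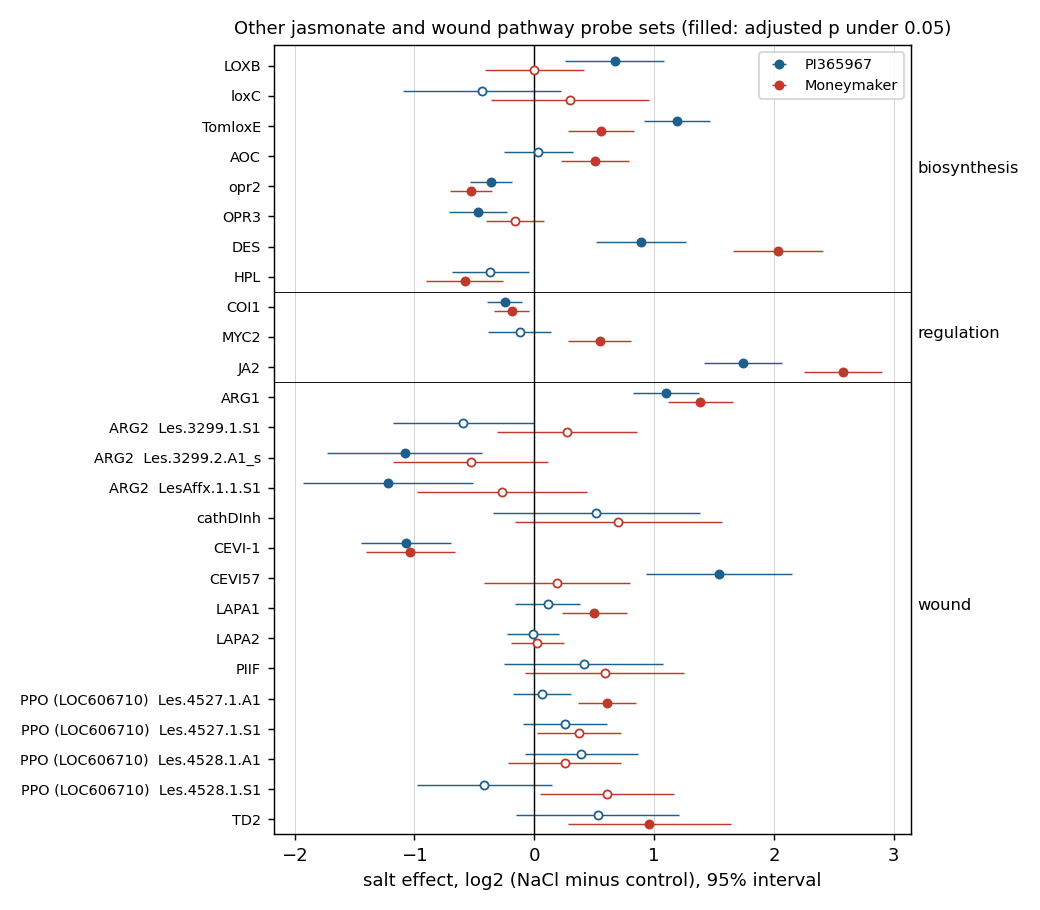
Points are the salt effects, log2 of NaCl minus control with 95% intervals, of the 26 other probe sets of the pathway, for PI365967 and Moneymaker, in the sets biosynthesis, regulation and wound. Filled points passed the test at an adjusted p under 0.05. DES, JA2 and ARG1 rose in both genotypes and CEVI-1 fell in both, while most wound-response points are open.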

How the data were processed

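Values are the authors' deposited intensity values, 1 linear value per probe set and array; how background was corrected and probes were summarised is not given in the sources used here. The authors also deposited log2 values of the same arrays and, per the file headers, a SAM table computed from them, which holds for each probe set a score, a log2 difference, a NaCl to control ratio and, as percent, a q-value; these served only as alternatives or are named as the authors'. Array medians differed by 0.90 in log2, over the 0.2 set for adding quantile normalization, so log2(intensity + 16) of the 10101 probe sets without the 108 controls was quantile normalized. A model with a mean per group was fitted to all 12 arrays with limma 3.58.1 in R 4.3.3 (lmFit and eBayes, 8 residual and 3.11 prior degrees of freedom), with 5 two-sided contrasts, Benjamini-Hochberg adjustment over all 10101 and a threshold of 0.05. With 3 arrays a group, the number of arrays limits how precise a value is. The test was run on simulated data first. Fold changes are on the log2(intensity + 16) scale. Figures were drawn with matplotlib 3.10.9.

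Gene symbols come from the platform annotation (909 probe sets, 885 of them matched to RefSeq, which gave synonyms); spellings of TomloxE, cathDInh, CEVI-1 and PPO-A were completed when it was read, and the symbol DAD1 was left out of the pathway list because its synonym points to another gene. Pathway genes were named by their largest called change in either genotype, up to 6 genes each way, AOC, MYC2, LOXB and LAPA1 being added after their values were seen; genes of like pattern were the 3 of highest correlation. The 5 genes and the lists were chosen with earlier results of these data known. Of 18 same-numbered pairs of arrays, 4 correlated above 0.1 (range −0.13 to 0.16). By that mark replicate numbers paired the samples of both control groups, where all 3 pairs passed (0.12 to 0.16), and of no other groups compared. Promoter and protein sequences were not analysed here.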

Additional observations from a re-analysis of the deposited data

Results flagged for a closer look

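The salt effect differed between PI365967 and Moneymaker by the test of the difference itself in 3 of the 5 genes and in 5 other pathway genes named here. That test called 6.15% of all probe sets higher and 7.09% lower, and MYC2 was named after its values were seen. Given as PI365967 minus Moneymaker in log2, the difference was −2.29 for AOS, −1.19 for loxD and 0.56 for OPR1. Among the others it was −1.14 for DES, −0.84 for JA2, −0.67 for MYC2, 0.64 for TomloxE and 1.35 for CEVI57. AOS kept its call in all 19 alternatives, within −2.49 to −1.98. CEVI57 had the largest of these differences that was higher in PI365967 and the least stable call, lost in 12 of 19 alternatives, as was that of TomloxE. In PI365967 controls CEVI57 lay near the absent controls, while in Moneymaker it was bright. The same test called 1 of 7 leaf markers higher, and of 9 root markers 3 higher and 1 lower. Under NaCl the 25S ribosomal RNA control differed from control solution by 0.82 in PI365967 and 1.91 in Moneymaker (log2). The 17S control, which lay near the absent controls, differed by −0.14 and 0.55 in the same order (log2). The part of these markers and controls in the differences between genotypes was not tested. No group had the 4 arrays that a search for outlying samples needs.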

How the results depend on the processing

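Of the 25 effects of the 5 genes, 18 kept their direction and their side of the threshold in every alternative run, and both salt effects of all 5 did so in 22 alternatives. Without normalization between arrays the median of all probe sets shifted by −0.25 for salt in Moneymaker, 0.022 for salt in PI365967, 0.30 for the difference of salt effects, 0.049 for genotype under NaCl and −0.22 for genotype in controls; read against these shifts, AOS and loxD lay lower in the difference. Calls over all probe sets then numbered 1983 against 4781 for salt in PI365967, 3534 against 5756 for salt in Moneymaker, 292 against 1337 for the difference, 2020 against 4961 for genotype under NaCl and 1585 against 3718 for genotype in controls. Higher calls made up 28.4% without normalization against 45.6% for salt in Moneymaker, 60.3% against 46.4% for the difference (35.4% with median centring) and 18.7% against 52.0% for genotype in controls. Of the 5 genes, 1 was then called in the difference (AOS) and 1 for genotype in controls (LOX1.1), and of the 26 others, 8 for salt in Moneymaker and 1 in the difference. With median centring 3 of the 26 were called in the difference, and leaving out 1 array gave 1 to 7, with 1 without PI365967 control array 1, 2 without PI365967 control array 2, and 3 without PI365967 control array 3 or NaCl array 1 or 3 of Moneymaker. The authors' q-value called 19 of 20 listed for salt in PI365967, against 80.2% of all its probe sets. The difference of LOX1.1 was called with dim probe sets left out (adjusted p = 0.0466) and with a trended robust prior (adjusted p = 0.0429). Values that changed sign were all uncalled: loxD for genotype in controls (−0.25 without normalization, −0.078 to 0.11 over arrays left out), AOC (−0.031 in PI365967 with median centring), LOXB in Moneymaker (0.17 with median centring, 0.0078 with 1 added, −0.076 to 0.078 over arrays left out) and 2 ARG2 probe sets in Moneymaker (−0.0012 to 0.53 and −0.60 to 0.085 over arrays left out). The cause was not tested. Of 41 effects of other pathway genes, 16 held in every alternative. The replicate number as a block changed no call of the 5 genes (AOS difference −2.29, adjusted p = 0.00119) and took those of TomloxE (adjusted p = 0.0514) and CEVI57 (adjusted p = 0.0561); 6 of 12 arrays correlated best with their own number.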
